A study of Mus musculus with 12 samples.

Results

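Transforming growth factor beta (TGF-beta) is made as a latent protein, and 10 genes of its ligands, receptors, latency proteins and feedback inhibitor were followed here in the aging retinal pigment epithelium (RPE), a sheet of pigmented cells that serves the photoreceptors. They are the ligands Tgfb1, Tgfb2 and Tgfb3, the receptors Tgfbr1, Tgfbr2 and Tgfbr3, the latent TGF-beta binding proteins Ltbp1, Ltbp2 and Ltbp3, and Smad7. They were chosen by gene symbol, and all 10 were found among the 27179 genes of the deposited tables. The RPE of wild-type males of the C57BL/6J strain was sampled at 22 months in 3 mice and at 5 months in 3 mice, and each eye gave 1 RNA-seq library, 12 in all. No mouse carried a transgene or received a treatment. Mice 1 and 2 of each age belonged to batch 1, and mouse 3 of each age to batch 2. The study compared the ages to learn how RPE transcription changes as mice grow old.

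A TGF-beta ligand is cut from its propeptide but stays bound to it, and the propeptide is tethered by a latent TGF-beta binding protein (LTBP) to fibrillin and fibronectin in the extracellular matrix. Integrins or proteases release the ligand, which binds TGFBR2 with TGFBR1, while betaglycan, the product of Tgfbr3, presents ligand to them. The receptors phosphorylate SMAD2 and SMAD3, which enter the nucleus with SMAD4. In the eye, TGF-beta is known for its part in matrix turnover and in the change of RPE cells to a mesenchymal form.

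Values are CPM, counts scaled to library size with TMM factors, with the counts of both eyes of a mouse summed, unless an eye is named. Libraries held 9171131 to 12324029 counts at 22 months and 9758665 to 13217909 at 5 months, and the 10 genes had 301 to 5678 counts in a library. RPE markers were present in every library, and the visual cycle gene Rpe65 averaged 2532 ± 1804 CPM at 22 months and 3996 ± 1110 CPM at 5 months (SD, n = 3 each). Transcripts typical of other cells were present too, although the paper describes its mouse samples as pure RPE. The summed level of 14 rod genes ranged from 1585 to 27005 CPM over the 22-month libraries and from 794 to 5967 CPM over the 5-month libraries. By the test described below, 13 of the 14 were called higher at 22 months, where 5.41% of all tested genes were. In such bulk samples, fewer cells of a type and less RNA per cell cannot be told apart.

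A gene was called when the adjusted p of edgeR's quasi-likelihood test was under 0.05 and its log2 fold change lay beyond 0.25. All 10 genes passed the low-count filter and were among the 14219 tested. Of them, 2 were called higher at 22 months and 0 lower. Over all tested genes, 5.41% were called higher, 2.26% lower and 7.67% either way. At an unadjusted p under 0.05, 2 of the 10 were higher and 1 lower, where the shares over all tested genes were 16.5% and 14.6%. The median log2 fold change was 0.16 for the 10 genes and -0.01 for all tested genes. The called genes were Tgfb3 and Ltbp2, which lie on the same chromosome.

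The promoter of Ltbp2 is shown because it is the called gene with an entry in the RefSeq promoter table (build GRCm38.p6). It spans chr12:84876442-84876741 on the minus strand, 300 bases around an annotated start of the gene, and is written 5′ to 3′ with each copy of the Smad-binding motif GTCT, or AGAC on the other strand, in capitals.
Ltbp2 promoter: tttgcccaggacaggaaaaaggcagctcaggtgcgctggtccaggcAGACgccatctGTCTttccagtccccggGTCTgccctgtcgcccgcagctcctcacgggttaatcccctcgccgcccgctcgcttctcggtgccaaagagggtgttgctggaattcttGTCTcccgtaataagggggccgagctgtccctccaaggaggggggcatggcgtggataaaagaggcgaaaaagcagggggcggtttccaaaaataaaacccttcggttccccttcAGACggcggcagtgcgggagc
This window held 5 copies, and 8.79% of 32851 promoters of the same length held at least as many. At least 1 copy was found in 88% of them. The other matched promoters held fewer, with 1 copy for Tgfb1 and Tgfbr2, 2 for Ltbp3, 3 for Tgfb2 and for both entries of Ltbp1, and 0 and 2 for the entries of Tgfbr1. The palindrome that joins GTCT and AGAC was in none of these windows and in 0.213% of all promoters. Of the 10 genes, 7 had an entry, and Tgfb3, Tgfbr3 and Smad7 had none. Such a match is a description of letters and not of a bound site.

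Tgfb3 encodes the ligand TGF-beta 3. Its level was 346.5, 426.7 and 341.8 CPM in 22-month mice 1, 2 and 3, against 220.4, 218.0 and 169.6 CPM in 5-month mice 1, 2 and 3. Every 22-month mouse lay above every 5-month mouse, and the ages did not overlap, in either direction, in 12.8% of all tested genes. The means were 371.7 ± 47.7 CPM at 22 months and 202.7 ± 28.7 CPM at 5 months (SD, n = 3 each), a log2 fold change of 0.88 (SE 0.10) with an adjusted p of 0.0226 by edgeR's quasi-likelihood test. Over single eyes, which are not separate replicates, it ranged from 299 to 454 CPM at 22 months and from 158 to 244 CPM at 5 months. The log2 difference was 0.81 within batch 1 and 1.01 within batch 2.

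The other ligands were not called. Tgfb1, the ligand made widely by immune cells, had 50.4, 63.0 and 42.0 CPM in the 22-month mice, against 38.9, 45.4 and 53.1 CPM in the 5-month mice. The ages overlapped, with a log2 fold change of 0.17 (SE 0.18, adjusted p = 0.553 by edgeR), and the within-batch differences had opposite signs, 0.42 in batch 1 and -0.34 in batch 2. Tgfb2, the chief ligand of the aqueous humor, had 91.7, 94.6 and 90.6 CPM in the 22-month mice, against 109.6, 64.4 and 44.0 CPM in the 5-month mice. The 22-month mice sat close together, and the 5-month mice spread to both sides of them. Its log2 fold change was 0.41 (SE 0.27, adjusted p = 0.340 by edgeR).

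**Figure D1:**
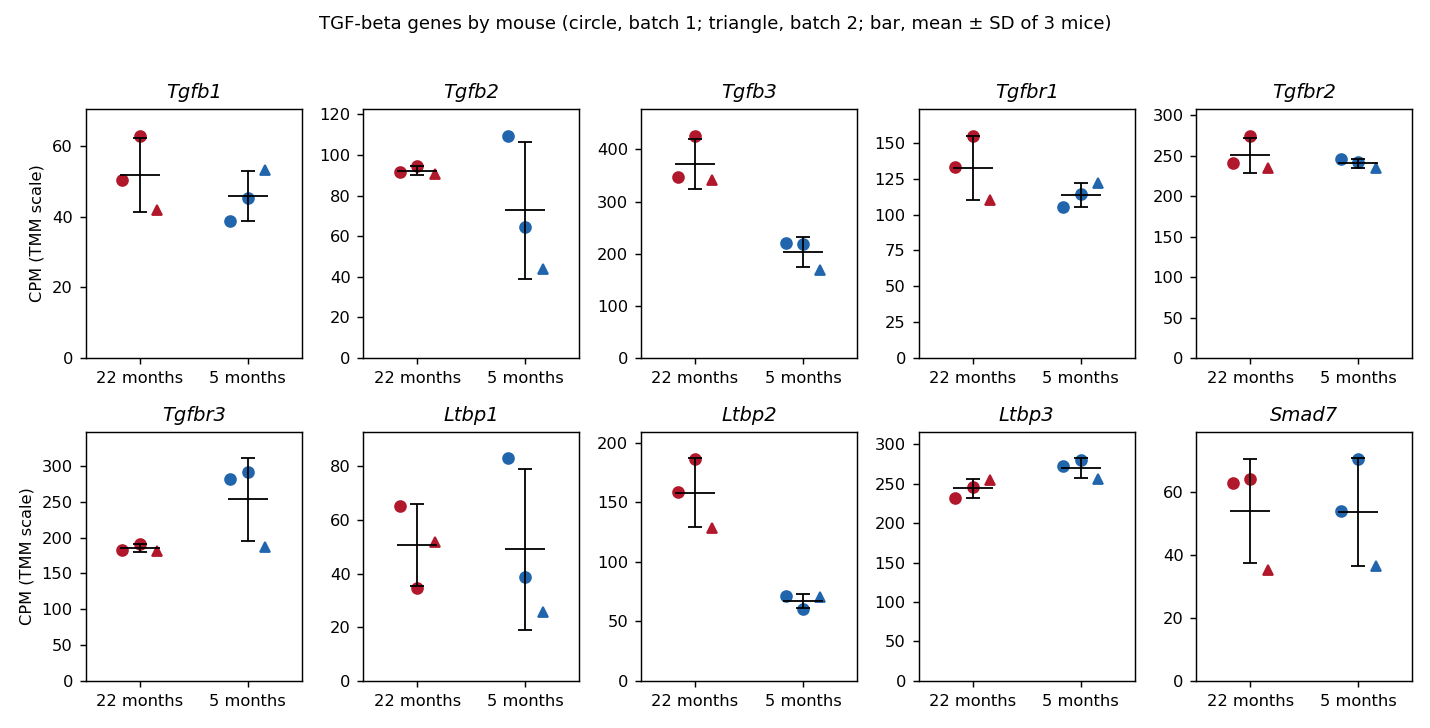
CPM of each of the 10 genes (y axes, each from 0) in the 3 mice aged 22 months (red) and the 3 mice aged 5 months (blue); circles are batch 1, triangles batch 2, and bars the mean ± SD. The ages stand well apart for Tgfb3 (lowest 22-month mouse 341.8 CPM, highest 5-month mouse 220.4 CPM) and for Ltbp2, while Smad7 is low in mouse 3 of both ages.

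Among the LTBPs, Ltbp2 had the larger change. Its product is a matrix protein that binds fibrillin and elastic fibers and, unlike the other LTBPs, is not known to bind the latent ligand. It had 159.1, 186.4 and 128.5 CPM in 22-month mice 1, 2 and 3, against 71.0, 60.4 and 70.6 CPM in 5-month mice 1, 2 and 3. Each 22-month mouse was above all 5-month mice, a lack of overlap that, in either direction, was seen in 12.8% of all tested genes. The means were 158.0 ± 29.0 CPM at 22 months and 67.3 ± 5.97 CPM at 5 months (SD, n = 3 each), a log2 fold change of 1.22 (SE 0.14) with an adjusted p of 0.0226 by edgeR's quasi-likelihood test. Single eyes ranged from 128 to 193 CPM at 22 months and from 56.1 to 73.1 CPM at 5 months. The log2 difference was 1.39 within batch 1 and 0.86 within batch 2.

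Both calls changed with the mice in the fit, while the folds changed little. Without 22-month mouse 1 the adjusted p was 0.0732 for Tgfb3 and 0.105 for Ltbp2, without 22-month mouse 2 it was 0.0895 and 0.0867, and without 5-month mouse 2 it was 0.0628 and 0.0538. With no batch term it was 0.478 for Tgfb3 and 0.345 for Ltbp2, and with right eyes only 0.0616 for each. Few genes passed in any of these fits, with 4 of 14219 called once 22-month mouse 1 was dropped, 1 once 22-month mouse 2 was, 104 once 5-month mouse 2 was, 2 with no batch term and 12 with right eyes only, next to 1090 with all mice and the batch term. The log2 fold change stayed between 0.81 and 0.98 for Tgfb3 and between 1.10 and 1.39 for Ltbp2 over all 20 alternatives. With the 3 libraries of most extreme rod score left out, it was 0.97 for Tgfb3 and 1.35 for Ltbp2, and both were called.

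Ltbp1 and Ltbp3, whose products do tether latent TGF-beta, were not called. Ltbp1 had 65.1, 34.7 and 51.9 CPM in the 22-month mice, against 82.9, 38.6 and 25.6 CPM in the 5-month mice, and its log2 fold change of 0.14 had an SE of 0.43 (adjusted p = 0.844 by edgeR). That SE was the largest of the 10 genes. Its difference turned round with the mouse left out, from -0.28 without 5-month mouse 3 to 0.64 without 5-month mouse 1, and with the eye, at 0.70 for left and -0.59 for right eyes. Ltbp3 had 231.2, 245.6 and 255.1 CPM in the 22-month mice, against 272.8, 280.2 and 256.4 CPM in the 5-month mice. Its mice did not overlap, as for 12.8% of all tested genes, but batch 2 differed by only -0.01, and the fit gave a log2 fold change of -0.15 (SE 0.08, adjusted p = 0.258 by edgeR).

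**Figure D2:**
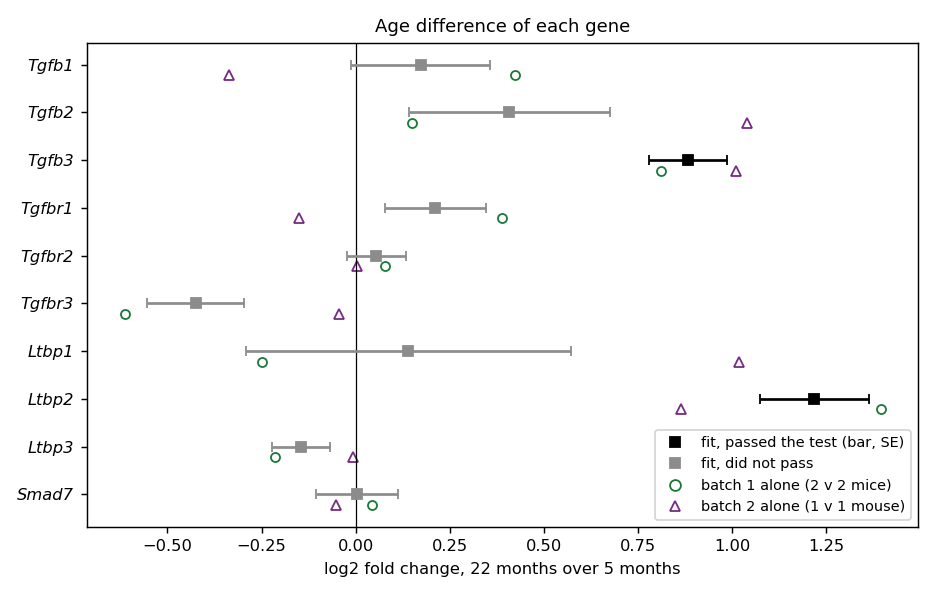
Log2 fold change of 22 months over 5 months for each gene (squares, bars are the SE; black passed the test), with the difference in batch 1 alone (circles) and batch 2 alone (triangles, 1 mouse of each age). Tgfb3 (0.81 and 1.01) and Ltbp2 (1.39 and 0.86) are high in both batches, while Tgfb1 (0.42 and -0.34) and Ltbp1 (-0.25 and 1.02) differ in sign between them.

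Of the receptors, none was called. Tgfbr3, the co-receptor betaglycan, came nearest. It had 182.4, 191.7 and 181.5 CPM in the 22-month mice, against 281.3, 291.1 and 187.1 CPM in the 5-month mice. The 22-month mice lay within a narrow range, and 5-month mouse 3, of batch 2, lay among them. The log2 fold change was -0.42 (SE 0.13, unadjusted p = 0.0171, adjusted p = 0.0960 by edgeR), with -0.61 within batch 1 and -0.04 within batch 2. DESeq2 on the mouse sums called it, with an adjusted p of 0.0293 (it called 16.6% of all tested genes either way). So did edgeR without 5-month mouse 3 (adjusted p = 0.0140) or without 22-month mouse 3 (adjusted p = 0.0137), and each of these fits called 21% of all tested genes. Leaving out either mouse leaves no comparison within batch 2. In a fit on single eyes, which are not separate replicates, with the rod score as a covariate, the log2 fold change was -0.12 (adjusted p = 0.797 by edgeR).

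The signaling receptors moved less. Tgfbr1, the type I receptor kinase, had 133.1, 154.8 and 110.2 CPM in the 22-month mice, against 105.4, 114.2 and 122.2 CPM in the 5-month mice, and the ages overlapped (log2 fold change 0.21, SE 0.13, adjusted p = 0.326 by edgeR). Tgfbr2, the type II receptor that binds the ligand first, had 241.2, 274.9 and 235.4 CPM in the 22-month mice, against 245.9, 241.9 and 235.0 CPM in the 5-month mice (log2 fold change 0.05, SE 0.08, adjusted p = 0.663 by edgeR). Smad7, the inhibitory Smad that TGF-beta itself induces, had 62.8, 64.1 and 35.0 CPM in the 22-month mice, against 53.9, 70.4 and 36.3 CPM in the 5-month mice. It was low in mouse 3 of both ages, and its log2 fold change was 0.00 (SE 0.11, adjusted p = 0.986 by edgeR).

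Levels of different genes were compared per length, as TPM, which divides counts by the summed exon length of each gene before scaling to the library. Tgfb3 had the highest level of the 10 genes at both ages, with 440 ± 94.1 TPM at 22 months and 225 ± 56.4 TPM at 5 months (SD, n = 3 each). Below it at 22 months came Tgfbr2 (122 TPM), Tgfbr3 (113 TPM) and Ltbp3 (107 TPM), whose ranges over the mice overlapped. Tgfbr1 (82.0 TPM), Ltbp2 (78.0 TPM) and Tgfb2 (63.6 TPM) followed, again with overlapping ranges. Smad7 (48.9 TPM) and Tgfb1 (41.5 TPM) overlapped, and Ltbp1 was lowest at 18.9 TPM. At 5 months the order was Tgfb3, Tgfbr3, Ltbp3, Tgfbr2, Tgfbr1, Tgfb2, Smad7, Tgfb1, Ltbp2 and Ltbp1, so that Ltbp2 was sixth at 22 months, at 78.0 ± 22.1 TPM, and ninth at 5 months, at 30.5 ± 4.16 TPM. With the longest transcript as the length, 4 of the 10 genes kept their rank over all 6 mice, and Tgfb3 stayed first and Ltbp1 last.

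The make-up of the ligand and LTBP messages was compared as shares, none of which passed its test. Tgfb3 took 79.9%, 81.4% and 80.8% of the summed TPM of the 3 ligands in the 22-month mice, against 71.0%, 76.2% and 73.4% in the 5-month mice. All 22-month mice were above all 5-month mice (exact permutation p = 0.1, 2-sided, the smallest that 3 against 3 mice allow). The Tgfb1 share averaged 7.51 ± 0.74% at 22 months and 11.5 ± 3.59% at 5 months, also without overlap (exact permutation p = 0.1), while the Tgfb2 shares overlapped (exact permutation p = 0.4). Shares within a family are tied, since a higher share of any gene lowers the rest, so they are not separate results. The level of Tgfb1 itself averaged 41.5 TPM at 22 months and 33.3 TPM at 5 months. All shares rest on the summed exon length of each gene. With the longest transcript as the length, Tgfb3 averaged 347 TPM at 22 months and 178 TPM at 5 months. Tgfb1 then averaged 64.1 and 51.7 TPM, above Tgfb2 at 56.8 and 43.1 TPM, and the shares were not computed for that length. Ltbp2 took 23.2%, 25.1% and 19.8% of the TPM of the 4 LTBPs in the 22-month mice, against 9.32%, 8.12% and 11.1% in the 5-month mice. The share of Ltbp4, which carries mainly latent TGF-beta 1, was 39.8 ± 1.57% at 22 months and 51.1 ± 2.51% at 5 months, again apart (exact permutation p = 0.1 for each). Over the 7 shares compared, the smallest Benjamini-Hochberg adjusted p was 0.175.

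**Figure D3:**
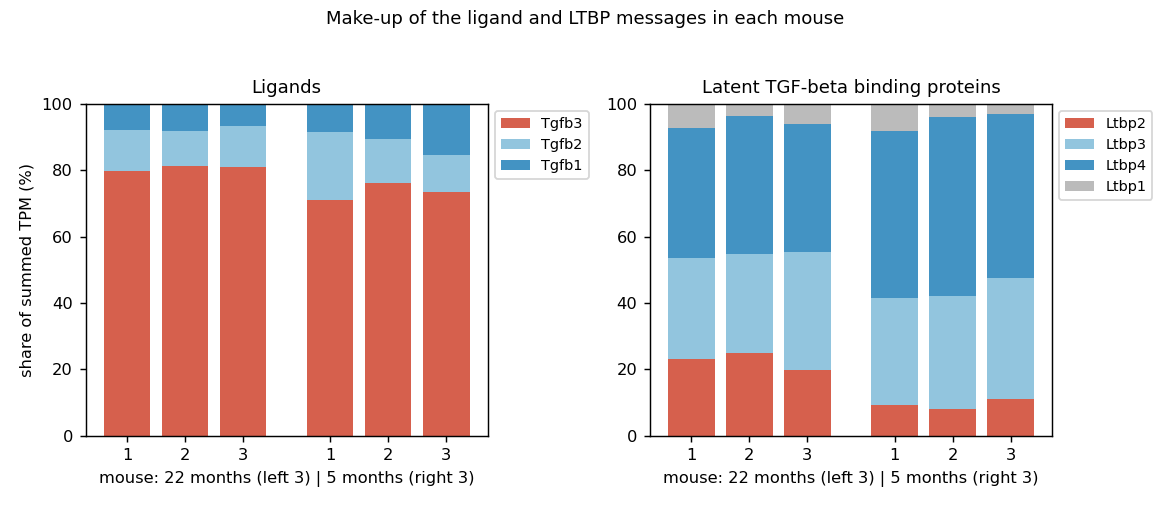
Share of the summed TPM, by summed exon length (y axis, %), that each ligand (left) and each latent TGF-beta binding protein (right) took in each mouse, 22 months in the left 3 bars and 5 months in the right 3. Tgfb3 filled 79.9% to 81.4% of the ligand bar at 22 months and 71.0% to 76.2% at 5 months.

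The eyes of a mouse showed how far libraries of the same animal differ, which is not the spread between mice used in the age test. The absolute log2 difference between left and right eye had a median of 0.19 over the 10 genes, next to 0.17 over all tested genes. It was lowest for Ltbp2 (median 0.11 over the 6 mice) and highest for Ltbp1 (median 0.62, above that of 92.6% of tested genes). In 22-month mouse 1 the left eye had 97.2 CPM of Ltbp1 and the right eye 32.7 CPM. For Tgfb2 the widest gap was in 5-month mouse 2, with 93.8 CPM in the left and 33.4 CPM in the right eye. Its 22-month eyes lay between 86.3 and 98.9 CPM, and its 5-month eyes between 29.7 and 126.7 CPM. In all 3 of the 5-month mice the left eye was the higher one for Tgfb2, and in all 3 of the 22-month mice the right eye was.

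**Figure D4:**
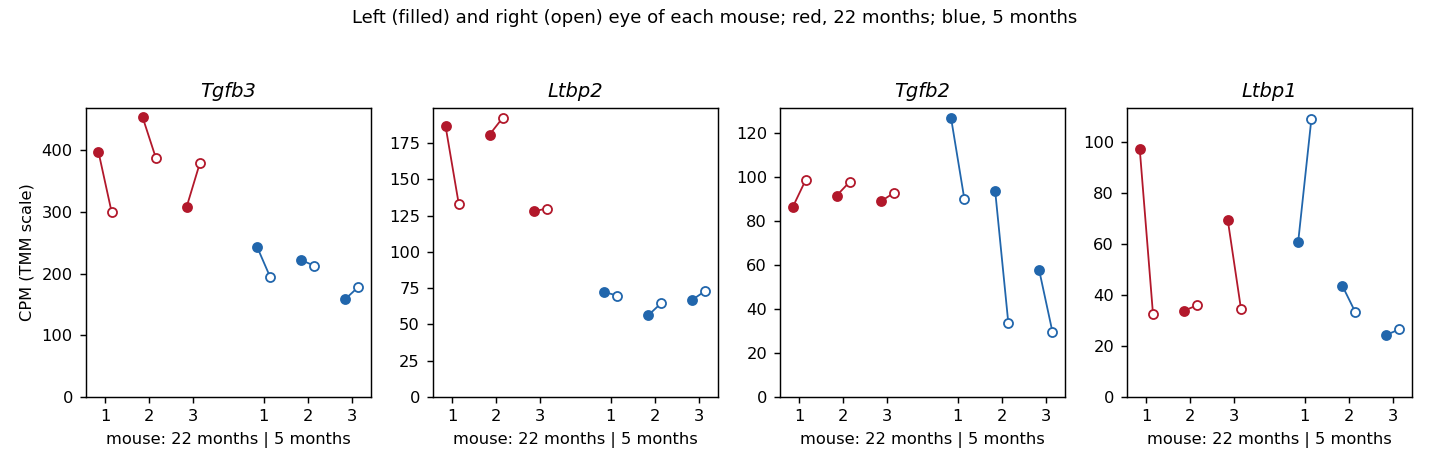
CPM (y axes, from 0) in the left (filled) and right (open) eye of each mouse, joined by a line, for 4 genes, with 22 months in red on the left and 5 months in blue on the right. The eyes of Tgfb3 lie at 299 to 454 CPM at 22 months and at 158 to 244 CPM at 5 months. Those of Ltbp2 lie at 128 to 193 CPM at 22 months and at 56.1 to 73.1 CPM at 5 months. Those of Tgfb2 spread from 29.7 to 126.7 CPM at 5 months, and Ltbp1 differs between the eyes of 22-month mouse 1 (97.2 and 32.7 CPM).

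Markers of other cells moved with some of these genes. The relations are given as Pearson r and Spearman coefficients over 12 libraries, 2 from each mouse, with age and batch means removed, as descriptions. Tgfbr3 went with the RPE marker score (r = 0.91, Spearman 0.80) and Ltbp3 did too (r = 0.83, Spearman 0.80). Tgfbr1 went with the macrophage and microglia score (r = 0.94, Spearman 0.95), as did Tgfb1 (r = 0.81, Spearman 0.77). Tgfb2 went with the Mueller glia and astrocyte score (r = 0.91, Spearman 0.89), Ltbp1 with that of iris and ciliary epithelium (r = 0.83, Spearman 0.77) and Tgfbr2 with that of pericytes and smooth muscle (r = 0.87, Spearman 0.79). The 2 libraries of a mouse share their animal, and their marker scores and depth differed between the eyes. The summed level of the 14 RPE genes ranged from 9745 to 41319 CPM over the 22-month libraries and from 26353 to 47736 CPM over the 5-month libraries. Of these 14 genes 4 were called lower at 22 months, where 2.26% of all tested genes were. Their median log2 fold change was -0.72. Mueller glia and astrocyte genes summed to 6034 to 17886 CPM at 22 months and 8681 to 16282 CPM at 5 months, and 1 of 10 was called higher, next to 5.41% of all tested genes. Of the 7 tested iris and ciliary epithelium genes and the 10 pericyte and smooth muscle genes, 1 each was called higher, and both sums overlapped between the ages. Their part in the values of these genes was not tested.

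For the called genes, the highest values by this measure were r = 0.77 (Spearman 0.69) for Tgfb3 with the fibroblast score and r = 0.67 (Spearman 0.66) for Ltbp2 with the macrophage and microglia score. Tgfb3 also had r = 0.65 (Spearman 0.72) with the melanocyte score. With only batch removed, Tgfb3 went with the mast cell score (r = 0.92) and Ltbp2 with the melanocyte score (r = -0.90), lists whose levels themselves differed with age. Of 5 tested mast cell genes 4 were called higher at 22 months, where 5.41% of all tested genes were. The summed level of the 5 was 51.9 to 291 CPM over the 22-month libraries and 54.6 to 66.6 CPM over the 5-month libraries. Kit, named because it also stands in the melanocyte list, was the gene not called. It ran the other way, with means of 33.8 CPM at 22 months and 52.2 CPM at 5 months. Of 5 melanocyte genes 3 were called lower, where 2.26% of all tested genes were, with 486 to 923 CPM at 22 months and 997 to 1268 CPM at 5 months. Of 10 macrophage and microglia genes 2 were called higher, with 659 to 1350 CPM at 22 months and 596 to 1209 CPM at 5 months. The median log2 fold change of this list was 0.62. None of 8 fibroblast genes was called, and their sum ranged from 3710 to 5589 CPM at 22 months and from 3868 to 6044 CPM at 5 months. No defining marker of these 4 lists was at 0, and the part of such cells in the age differences was not tested.

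The genes most like the 3 members of smallest p were taken by Pearson correlation of log2 CPM over the 12 libraries, with batch means removed but age left in. A gene picked this way for a called gene tends to carry the same age difference, so its own call is no separate result. For Tgfb3 they were Tnmd (r = 0.990), a membrane glycoprotein of tendon, Eln (r = 0.985), which encodes elastin, and Fmod (r = 0.982), a collagen-binding proteoglycan. All were called higher at 22 months, with log2 fold changes of 1.20, 0.88 and 0.94. Ltbp2 was nearest to Bpifb1 (r = 0.977), to Nox4 (r = 0.976), an NADPH oxidase that makes hydrogen peroxide, and to Mfge8 (r = 0.969), a secreted protein that bridges dying cells to phagocytes. These were called higher as well, with log2 fold changes of 2.73, 1.41 and 1.51. Tgfbr3 was nearest to Marchf8 (r = 0.990), a membrane ubiquitin ligase, to Clybl (r = 0.987), a mitochondrial enzyme, and to Abcc4 (r = 0.987), an efflux transporter, none of which was called. Tgfb3 and Ltbp2 were themselves correlated at 0.92 with batch removed and at 0.27 with age removed too.

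Of the wider pathway, 81 of 83 listed genes were tested, each counted once, of which 5 (6.17%) were called higher and 3 (3.70%) lower at 22 months, close to the 5.41% and 2.26% over all tested genes. Their median log2 fold change was -0.05. In the list of 21 genes that process and activate latent TGF-beta, 2 were called higher and 2 lower, with a median of -0.13. Fn1, whose product fibronectin anchors the latent complex in the matrix, had 767, 795 and 375 CPM in the 22-month mice, against 234, 157 and 193 CPM in the 5-month mice (log2 fold change 1.66, SE 0.26, adjusted p = 0.0312 by edgeR). Plau, the urokinase that makes plasmin, averaged 22.7 ± 1.02 CPM at 22 months and 12.7 ± 1.09 CPM at 5 months (log2 fold change 0.84, adjusted p = 0.0236 by edgeR). The mice of the ages stood apart for both genes, as in 12.8% of all tested genes. Fbn2, a fibrillin, fell by 0.39 on the log2 scale (adjusted p = 0.0361 by edgeR), although the mice of the ages overlapped, since mouse 3 was low at both ages, with 18.3 CPM at 22 months and 23.7 CPM at 5 months. Ltbp4 fell by 0.40 on the log2 scale, with an adjusted p of 0.0492 by edgeR, and with the mouse number as a replicate block it was 0.0572. In the fit on single eyes with the rod score as a covariate, Fbn2 changed by -0.15 and Ltbp4 by -0.25, and neither was called.

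Values of genes that activate latent TGF-beta but were not called are given for Itgav and Thbs1, chosen after their values were seen. Itgav, the integrin alpha chain that binds the propeptide, had 489, 711 and 633 CPM in the 22-month mice, against 1070, 1208 and 787 CPM in the 5-month mice (log2 fold change -0.72, adjusted p = 0.0793 by edgeR). Thbs1, the activator thrombospondin 1, averaged 1994 CPM at 22 months and 1274 CPM at 5 months (log2 fold change 0.64, adjusted p = 0.117 by edgeR). The mice of the ages did not overlap in either gene, as in 12.8% of all tested genes.

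Over all tested genes 7.67% were called either way, and of 11 other receptors and co-receptors 1 was called. Nrp2, a neuropilin that also binds semaphorins, averaged 234 CPM at 22 months and 327 CPM at 5 months (log2 fold change -0.48, SE 0.07, adjusted p = 0.0292 by edgeR). It was not called in the fit on single eyes with the rod score as a covariate (-0.29). Among 18 Smads and Smad partners the single call was Pmepa1, a TGF-beta-induced protein that holds back Smad signaling. It had 98.5, 110.4 and 107.3 CPM in the 22-month mice, against 74.8, 77.6 and 83.2 CPM in the 5-month mice (log2 fold change 0.43, SE 0.07, adjusted p = 0.0350 by edgeR). The median of this list was -0.05.

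Of 23 tested TGF-beta target genes, 3 were called higher and 0 lower, where 5.41% and 2.26% of all tested genes were, and the median was -0.06. They were Fn1 and Pmepa1, which also stand in the lists above, and Snai2. Snai2, a repressor of epithelial genes, was a low gene, with 7.55, 8.46 and 6.78 CPM in the 22-month mice, against 3.98 to 5.02 CPM in the 5-month mice (log2 fold change 0.75, SE 0.13, adjusted p = 0.0367 by edgeR). With the replicate block its adjusted p was 0.0544, and in the fit on single eyes with the rod score as a covariate 0.0613 (log2 fold change 1.03). Ccn2, a direct target chosen after its values were seen, had a log2 fold change of -0.01 (SE 0.41). Of 12 tested secreted binders 1 was called, Fmod, whose product binds TGF-beta, with 481, 596 and 508 CPM in the 22-month mice, against 328, 267 and 238 CPM in the 5-month mice (log2 fold change 0.94, SE 0.13, adjusted p = 0.0270 by edgeR). Each of these 8 calls was lost without 22-month mouse 1 or without 22-month mouse 2, where none of the 81 genes was called, while 21 were called without 22-month mouse 3 and 20 without 5-month mouse 3, and of all tested genes 0.0281% were called with 22-month mouse 1 left out, 0.00703% with 22-month mouse 2 left out and 21.0% with mouse 3 of either age left out. Without 5-month mouse 1 there were 2 calls among the 81 genes, where 2.86% of all tested genes were called. Without 5-month mouse 2 there was 1, where 0.731% of all tested genes were called.

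**Figure D5:**
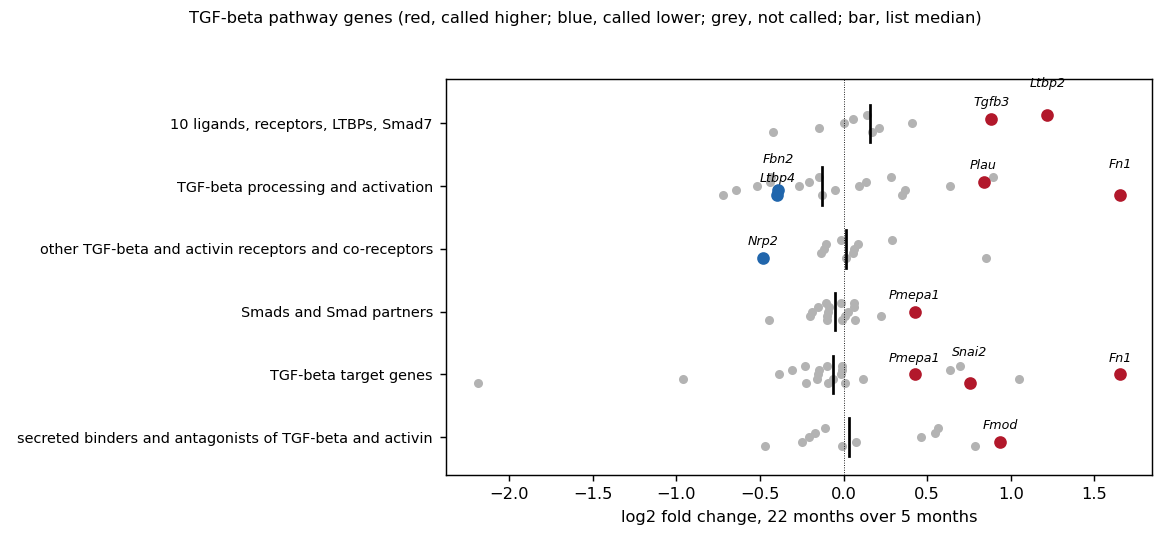
Log2 fold change of 22 months over 5 months (x axis) for every tested gene of the 10 genes and of 5 TGF-beta pathway lists; each point is a gene, red was called higher, blue called lower, grey not called, and the bar is the median of the list. The medians lie between -0.13 and 0.16, and Fn1 at 1.66 and Ltbp2 at 1.22 are the called genes farthest to the right.

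Tgfb3 (chr12:86056743-86079041) and Ltbp2 (chr12:84783212-84876558) lie 1180.2 kb apart in GRCm38. Of the 18 tested genes between them, 0 were called higher and 1 lower at 22 months, and their median log2 fold change was -0.06.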

How the data were processed

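RNA of RPE cells, released from eyecups by enzymes after the retina was removed, was prepared with a stranded total RNA kit with ribosomal depletion. The submitters' processing notes and the paper name FastQC, Trimmomatic, HISAT2 with mm10, and featureCounts. For these tools, versions and any use of strand in counting were not given in the sources used here. Whole, unadjusted counts make up the deposited raw table. From it the authors made estimated counts with ComBat-seq to correct for batch. Dividing these by DESeq2 size factors gave the deposited normalized signal of each gene. Entrez IDs were matched to symbols in RefSeq GRCm38.p6 (25275 of 27179).

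The replicate was the mouse, with the raw counts of its eyes added (20853656 to 26266140 per mouse) and tested by quasi-likelihood in edgeR 4.0.16 under R 4.3.3 (TMM scaling; terms for batch and age) over the 14219 genes whose deposited normalized values averaged 20 or more. Adjustment was Benjamini-Hochberg over all tested genes. The filter and thresholds were the study's. Standard errors were computed from fold changes and F statistics, and log2 CPM used a prior count of 1. Within-batch values are differences of mean log2 CPM. Marker scores are mean log2 CPM. TPM used GENCODE M21 exon unions from the raw counts. The edgeR p-values rest on the spread between the 3 mice of each age that remains after the batch term, moderated over all tested genes. Genes that overlap or have antisense partners may share reads.

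The 10 genes and all lists were chosen with earlier results of these data known. Named are the 10 genes, of each list up to 6 called members by smallest p, for the 3 of smallest p the 3 genes most correlated with each, and Rpe65; exceptions are said in the text, and some items under this rule are not reported here. Alternatives used DESeq2 1.42.0, limma 3.58.1 (voom; limma-trend on log2 of normalized values plus 4), other scalings, filters, eyes as samples, one eye, a rod covariate, no batch term and each mouse left out. The fits with voom, limma-trend, the rod covariate and DESeq2 on batch-corrected counts took single eyes as samples. Of these, voom had the mouse as a random effect. Leaving out the 3 libraries with the most extreme rod scores was an alternative chosen after seeing the data. To check for pairing, deviations from group means were correlated across genes between mice of the same number, which gave 0.77, 0.61 and 0.85. Differently numbered mice of batch 1 correlated at 0.61 and 0.52. With batch means removed too, the value in batch 1 was 0.34 for the same number and -0.34 for different numbers, which mirror each other since each age has 2 mice there. The labels only number the mice within each age, and mirrored values cannot show whether the numbers pair them. The fit with the mouse number as a block was an alternative, and its value is given where it changes a call. The scripts were tested on simulated data.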

Additional observations from a re-analysis of the deposited data

Results flagged for a closer look

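For Tgfb2 and Ltbp3 the eyes of a mouse differed one way in all 22-month mice and the other way in all 5-month mice. The log2 difference of left minus right eye averaged -0.12 at 22 months and 0.98 at 5 months for Tgfb2, a difference of -1.10. For Ltbp3 it averaged 0.38 at 22 months and -0.23 at 5 months, a difference of 0.61. Exact permutation of the ages gave p = 0.1 for each, the smallest that 3 against 3 mice allow, and 0.333 after Benjamini-Hochberg adjustment over the 10 genes, so neither passed. Such opposite eyes were seen in 10.8% of all tested genes and in 2 of the 10. Marker scores moved with these eyes. The RPE score was higher in the left eye of 3 of 3 mice at 22 months and of 0 of 3 at 5 months, by a mean log2 difference of 0.41 at 22 months and -0.23 at 5 months. The Mueller glia and astrocyte score was higher in the left eye of 2 of 3 mice at 22 months and of 3 of 3 at 5 months, with differences of -0.78 to 0.05 at 22 months and 0.66 to 1.99 at 5 months, and the rod score in 1 of 3 at 22 months and 3 of 3 at 5 months, with means of -0.14 at 22 months and 2.04 at 5 months. The part of such cells in the eye differences was not tested.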

How the results depend on the processing

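Of the 10 genes, 2 were called. The count was 0 with no batch term and with right eyes only, and 0 to 3 with each mouse left out in turn. It was 2 or 3 under every other alternative, and Tgfb3 and Ltbp2 were higher at 22 months under all 20. Of the 81 pathway genes, 8 were called. The count was 16 with DESeq2 on mouse sums, 2 with left eyes only, 0 with right eyes only, 0 with no batch term, and 0 to 21 when single mice were left out. Other fits took single eyes as samples, although the eyes of a mouse are not separate replicates. There the count was 20 with edgeR, 17 with voom and the mouse as a random effect, and 19 with DESeq2 on batch-corrected counts. It was 19 with limma-trend and 4 with the rod covariate. Calls over all tested genes moved alike, to 16.6% with DESeq2 on mouse sums and 1.25% with left eyes only. In the fits on single eyes they moved to 20.8% with edgeR, 19.4% with voom, 23.4% with DESeq2 on batch-corrected counts, 22.7% with limma-trend and 1.41% with the rod covariate. Over all genes, 321 were called lower and 769 higher; without 22-month mouse 1 these were 0 and 4, without 22-month mouse 2 they were 0 and 1, without 5-month mouse 2 they were 26 and 78, and without 22-month mouse 3 they were 1266 and 1724. In the fit with the mouse number as a replicate block, 2 of the 10 genes, 6 of the pathway genes and 5.82% of all tested genes were called. Ltbp4 and Snai2 lost their calls and no other named call changed. With longest transcript lengths, 4 of 10 genes kept their rank by TPM. The fit had 3 residual degrees of freedom, and mouse 3 was alone in its batch at each age; the causes of these changes were not tested.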
